A study of Mus musculus with 20 samples.

Results

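The clustered protocadherins are the genes of 3 neighbouring gene clusters, α, β and γ, on mouse chromosome 18. Members were the protein-coding genes of the GENCODE annotation of NCBIM37 (mm9) whose symbols begin with *Pcdha*, *Pcdhb* or *Pcdhg*, followed by a number or by a, b or c and a number. The rule found 24 of 22367 protein-coding genes, which lay between chr18:37089939 and chr18:38001527, a span of 912 kb. This annotation merges most α genes into *Pcdha11* and the γ genes into *Pcdhgc5*, so 2 genes stand for the α cluster, 21 for the β cluster and 1 for the γ cluster. The later GRCm38 table of RefSeq lists 57 symbols of this form. Members were therefore followed by their variable exons, the large coding exons that each encode an extracellular region, of which 40 were annotated: 10 α, 21 β and 9 γ. Exons of the merged genes are numbered here in genome order within their cluster. No sequence of these exons is printed.

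Clustered protocadherins are cell-surface adhesion molecules of the cadherin superfamily. Each α and γ variable exon has its own promoter and is spliced to a few constant exons at the 3′ end of its cluster, which encode the shared cytoplasmic end, whereas each β gene is a single exon of its own. Neurons express different combinations of these promoters, a choice tied to DNA methylation and to CTCF, and homophilic binding between matching combinations is used in self-avoidance of neurites. 5-Formylcytosine (5fC) is an oxidation product of 5-methylcytosine made by TET enzymes, and thymine DNA glycosylase (TDG) excises it.

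Peaks of 5fC came from a chemical pull-down of DNA from E11.5 mouse embryos. Hindbrain was taken from 4 wild-type (WT) and 4 *Tdg* null embryos, 1 of each genotype from each of litters A, O, Q and Z. Heart, liver and carcass (the body that is left) were taken from 2 WT and 2 *Tdg* null embryos, 1 of each genotype from each of 2 litters, pair a and pair b, so that these 3 tissues share embryos. The *Tdg* null allele lacks TDG's catalytic part and carries a neomycin selection cassette there, embryos came from intercrosses of heterozygotes, and the deletion is present in every cell of the embryo. The *Tdg* null liver of pair b, which the study set aside for poor quality, held 228 peaks genome-wide and none in the span, and it was kept apart, leaving 9 *Tdg* null and 10 WT libraries.

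The files give peak positions only, on a 100-base grid, so neither depth nor peak height is known, and a feature with no peak is one in which no peak was called. The *Tdg* null libraries held 101344 to 254319 peaks and the WT libraries 1563 to 42012. Every *Tdg* null library thus held more peaks than every WT library. Peak positions carry no expression, so neither the tissue labels nor *Tdg* itself could be checked. Peak calls in WT were few everywhere, and the values at 0 in WT below rest on small numbers of peaks.

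In the *Tdg* null libraries, 5fC peaks were nearly absent from the α and β variable exons, and within the γ cluster they lay at its 3′ end. Of the 40 variable exons, 35 had no base under a peak in any of the 9 *Tdg* null libraries: 9 of 10 α exons, 21 of 21 β exons and 5 of 9 γ exons. Of 409 coding exons of 2000 to 3000 bases in all other genes, 46.5% had none. The β members from *Pcdhb1* to *Pcdhb19*, with *Pcdhb21* and *Pcdhb22*, were at 0 bases in all 19 libraries, so no order among them could be given. In bulk DNA, a mark in few cells and a weak mark in many cells cannot be told apart. The exons that carried peaks were α exon 9 and γ exons 6, 7, 8 and 9, the 4 γ exons nearest the constant exons. The map of peaks along the span shows the same division.

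**Figure D1:**
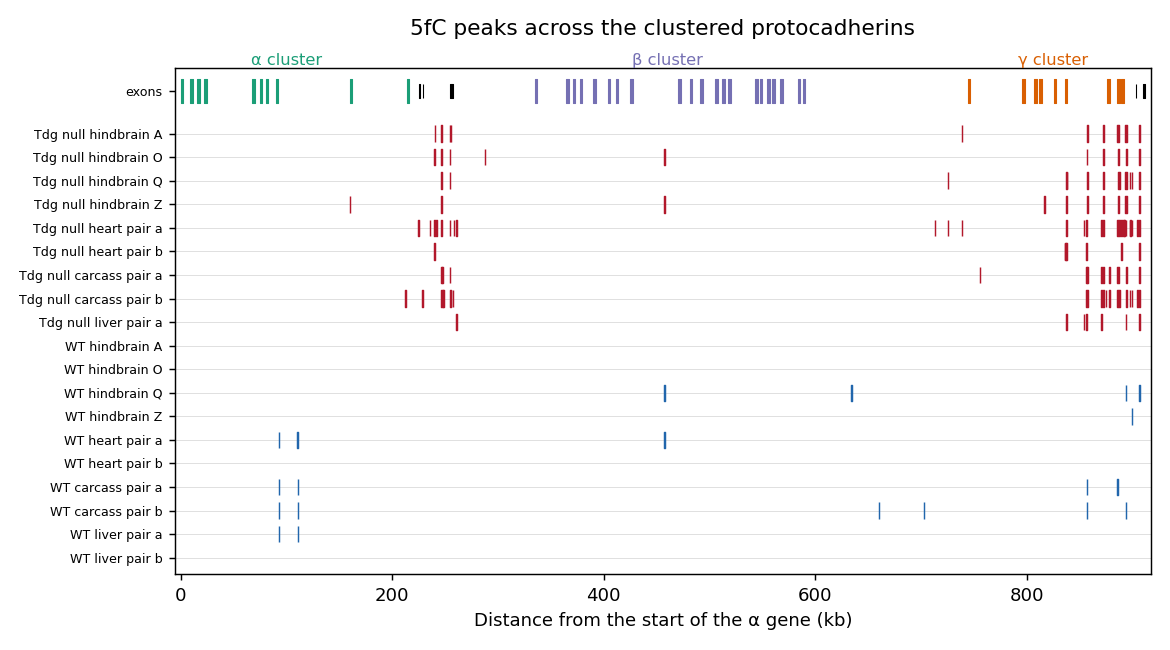
Called 5fC peaks (bars) in 9 *Tdg* null (red) and 10 WT (blue) libraries across the span, by distance in kb from the start of the α gene; coloured boxes at the top are the 40 variable exons and black boxes the constant exons. The β cluster holds at most 1 peak in a library, and most peaks of the *Tdg* null libraries stand at the 3′ ends of the α and γ clusters.

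γ exon 8 (chr18:37975187-37977637, 2451 bases) was the member with the most bases under peaks. In *Tdg* null hindbrain its peaks covered 1900 bases in litter A, 1500 in O, 1437 in Q and 1400 in Z, a mean of 63.6% ± 9.42 (SD, n = 4) of the exon. The *Tdg* null carcass had 2000 bases in pair a and 2337 in pair b, and the *Tdg* null heart 2237 in pair a. It was at 0 in the *Tdg* null heart of pair b and the *Tdg* null liver of pair a. Of the WT libraries, 1 had a peak here, the carcass of pair a, with 500 bases. Thus all hindbrain and carcass libraries of the *Tdg* null embryos carried the peak. In hindbrain the genotypes did not overlap, which is a description, since this exon is given for its coverage in *Tdg* null libraries, and 18.9% of all protein-coding genes separate in the same way.

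γ exon 6 (chr18:37925771-37928194, 2424 bases) had peaks in another set of libraries. Covered bases were 1094 in *Tdg* null hindbrain Q and 500 in Z, and 0 in A and O, which gives a hindbrain mean of 16.4% ± 21.5 (SD, n = 4). The *Tdg* null hearts had 1394 bases in pair a and 1894 in pair b, and the *Tdg* null liver of pair a 1194. Both *Tdg* null carcass libraries and all WT libraries were at 0. This exon had the highest CpG density of the 40, with 5.94 CpGs per 100 bases, and the antisense long noncoding gene *Gm16882* overlaps it on the other strand.

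The coding part of γ exon 9 (chr18:37979329-37981941) was covered only in *Tdg* null heart among the 19 libraries, with 2213 bases in pair a and 1072 in pair b. γ exon 7 (chr18:37966202-37968631) was covered only in *Tdg* null carcass among them, with 500 bases in pair a and 600 in pair b. Each of these tissues has 2 *Tdg* null libraries, and the difference between tissues at single exons was not tested. The α cluster had 1 covered exon, α exon 9 (chr18:37249790-37252225), with 200 bases in *Tdg* null hindbrain Z and 0 in every other library.

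**Figure D2:**
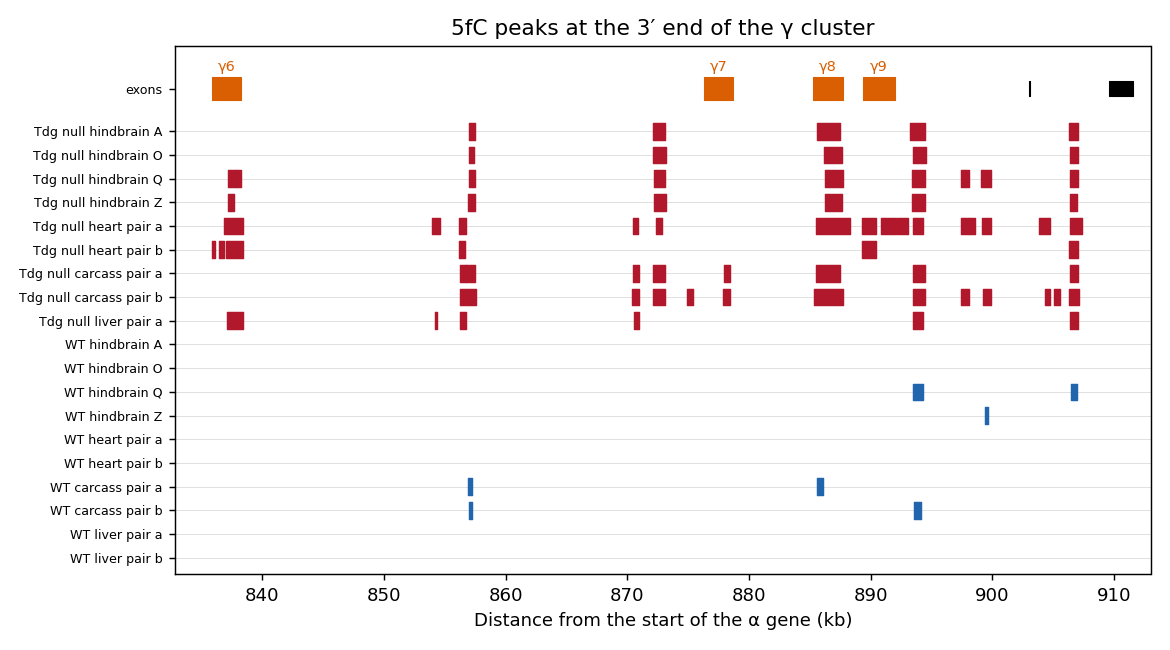
Called 5fC peaks at the 3′ end of the γ cluster in the 9 *Tdg* null (red) and 10 WT (blue) libraries, by distance in kb from the start of the α gene; orange boxes are γ exons 6 to 9 and black boxes the 2 constant exons. The peak over γ exon 8 stands in 7 *Tdg* null libraries, that between the constant exons in all 9.

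The difference between genotypes was tested first over all variable exons. In hindbrain, the share of variable exon bases under peaks was 1.97% in *Tdg* null A, 1.56% in O, 2.63% in Q and 2.18% in Z, and 0 in all 4 WT libraries. The groups did not overlap, and the mean difference was 2.08 percentage points (SD 0.445 in *Tdg* null, n = 4 each). A two-sided exact permutation test gave p = 0.0286, and 4 against 4 cannot go lower. Paired by litter, the sign-flip p was 0.125, the smallest that 4 pairs can give. Over all 6 litters, *Tdg* null minus WT of the same tissue and litter was 2.42 percentage points ± 0.626 (SD), and it was positive in each of the 6 (exact two-sided sign-flip p = 0.03125, which is the floor for 6 litters). An even share of the few WT peaks would put less than the mean length of 1 peak on these exons in all 4 WT hindbrains. Values of 0 were thus near certain in A and Z and carry little weight in O and Q. These p-values compare numbers of called peaks rather than anything particular to these exons.

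That difference goes with the larger number of peaks in *Tdg* null tissue everywhere. The second measure therefore divided the bases of all annotated member exons under peaks by the Mb of sequence under peaks in the same library. It was 44.6 bases per Mb in *Tdg* null hindbrain A, 43.8 in O, 43.6 in Q and 34.1 in Z, and in WT hindbrain 0 in A, O and Z and 66.7 in Q. The WT library of litter Q lay above all 4 *Tdg* null libraries, so the groups overlapped, and the difference of 24.9 did not pass the test (two-sided exact permutation p = 0.143, n = 4 each). Without litter Q it was 40.8 (exact permutation p = 0.1, the smallest for 3 against 3). Over the 6 litters it was 23.3 ± 25.3 (SD), above 0 in 5 of 6 (exact sign flip p = 0.0938). With variable exons alone in place of all member exons, the differences were 23.3 in hindbrain and 21.7 over litters. In WT hindbrain A, O and Z an even share is shorter than 1 peak of mean length, over member exons and over variable exons alike. A positive difference was thus near certain in litters A and Z and likely in O. None of these signs and p-values of the peak share is therefore read as support, with or without litter Q. Member exons make up 51.8 bases per Mb of the genome.

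Gene by gene, coding bases under peaks were compared between the 4 *Tdg* null and 4 WT hindbrain libraries, with a gene called when every *Tdg* null value exceeded every WT value. Of the 24 members, 2 were called, *Pcdha11* and *Pcdhgc5*, against 18.9% of all 22367 protein-coding genes. *Pcdhgc5* had 8.48%, 6.70%, 11.3% and 8.48% of its coding bases under peaks in *Tdg* null hindbrain A, O, Q and Z, and 0 in every WT hindbrain. *Pcdha11* had 1.38%, 1.38%, 1.35% and 0.898% against 0. In A, O and Q these bases lay outside the variable exons, and in Z they were the 200 bases of α exon 9. Both had the smallest p that this exact permutation test gives, 0.0286, and an adjusted p of 0.151 over all genes. The other 22 members were at 0 in the 9 *Tdg* null libraries. With peaks of at least 600 bp, 1 member, *Pcdhgc5*, was called.

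Next, the variable exons were set against the coding exons of all other genes. Other coding exons were covered to 6.44%, 4.84%, 6.63% and 6.52% in *Tdg* null hindbrain A, O, Q and Z, to 14.9% and 7.83% in heart of pair a and pair b, to 7.18% and 9.55% in carcass, and to 4.50% in liver of pair a. Variable exons were covered to 6.06% and 3.08% in the hearts, 2.59% and 3.05% in the carcass and 1.24% in the liver, each below the value of other coding exons in the same library, as in hindbrain. The log2 ratio, with 100 bases added to each covered length, was -1.48 ± 0.12 (SD) over the 6 litters and below 0 in all of them (exact sign flip p = 0.03125). The call was lost (exact sign flip p = 0.0625) when the *Tdg* null liver of pair b was included, at -1.16, and when exons touching a peak were counted in place of bases, at -0.63. In WT, variable exons were covered to 0.519% in the carcass of pair a and were at 0 in the other 9 libraries, while other coding exons were covered to between 0.0616% and 1.48%. The difference was -0.435 percentage points ± 0.332 (SD), below 0 in 6 of 6 litters. In WT hindbrain A and Z, where other coding exons were covered to 0.0676% and 0.0616%, an even share of the variable exons is shorter than 1 peak, so a negative value there was near certain and the exact sign flip p of 0.03125 is empty.

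The γ cluster stood above the α and β clusters. γ variable exons were covered to 8.63%, 6.81%, 11.5% and 8.63% in *Tdg* null hindbrain A, O, Q and Z, to 26.5% and 13.5% in heart, 11.4% and 13.3% in carcass and 5.42% in liver. β variable exons were at 0 in all of these, and α variable exons were at 0 except in hindbrain Z, with 0.825%. α was below γ, and β was below γ, in 6 of 6 litters (each exact sign flip p = 0.03125, adjusted p = 0.03125 over the 3 pairs). α and β could not be told apart: both were at 0 in 5 of 6 litters, where the log2 ratio holds only the lengths of the exons, and its p of 0.03125 by sign flip is therefore empty.

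Against the coding exons of other genes, γ variable exons lay higher, by 0.62 ± 0.14 (SD) on the log2 scale, above 0 in 6 of 6 litters, and α and β variable exons lay lower in 6 of 6 (each exact sign flip p = 0.03125, adjusted p = 0.03125 over the 3 clusters). This comparison of each cluster was added after seeing the data. When each side was divided by the coverage of 500-bp windows of equal GC content, the γ difference was 0.036 (exact sign flip p = 0.594).

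**Figure D3:**
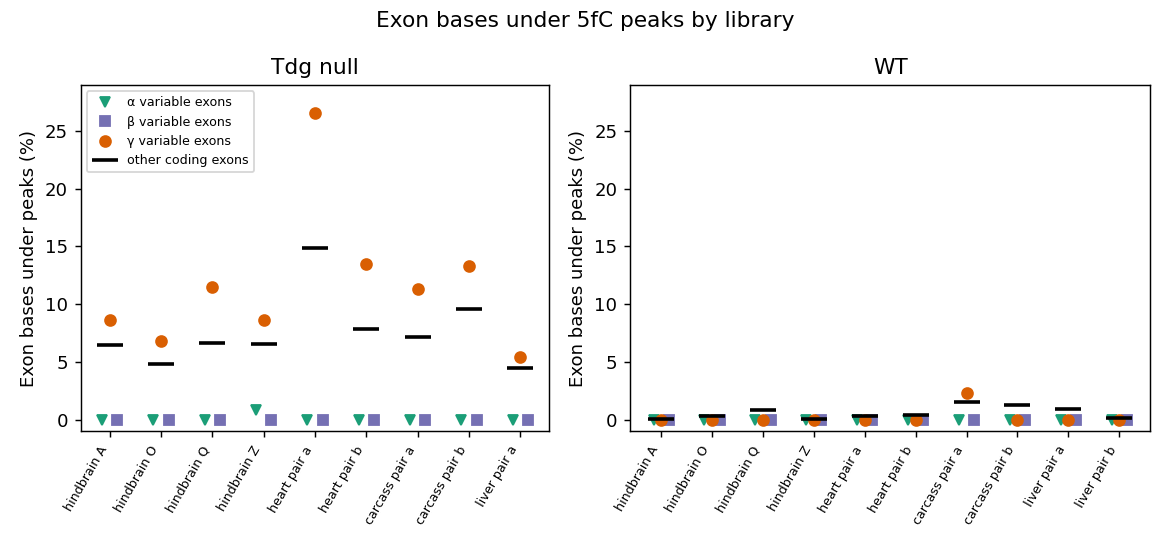
Percent of variable exon bases under peaks in each library for the α (triangles), β (squares) and γ (circles) clusters, with the coding exons of all other genes as black bars, in 9 *Tdg* null and 10 WT libraries. γ lies above the bar in all 9 *Tdg* null libraries, while β stays at 0.

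The base composition of the exons was compared with that of other coding exons. Variable exons held 3.50 CpGs per 100 bases and other coding exons 2.90. By cluster, the median was 4.68 for α, 2.81 for β and 3.39 for γ exons. The 5 exons with a peak in a *Tdg* null library ranged from 2.67 to 5.94, with a median of 3.39, and the 35 without from 2.08 to 5.47, with a median of 3.11. GC content was 55.5% over γ exons 6 to 9 and 52.2% over γ exons 1 to 5, and γ exons 7, 9 and 6 had the highest GC content of the 40. The part of GC content in these peaks was not tested by exon. In windows across the genome with as many CpGs, the 9 *Tdg* null libraries covered a median of 8.16% for α exons, 11.1% for β exons and 10.04% for γ exons. The medians observed were 0, 0 and 11.4%. Matched on GC content in place of CpGs, the windows gave 8.69%, 7.52% and 9.54%. The expected and observed medians of γ fall in different libraries. With either match, γ exons lay below the windows of the same library in *Tdg* null hindbrain A, O and Z, both carcasses and the liver. They lay above them in hindbrain Q and both hearts. Words of 100 bases that occur once in the genome made up 95.2% of α, 99.4% of β and 99.4% of γ variable exon bases, so repeated sequence, in which aligned reads have no single place, was a small part of these exons.

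**Figure D4:**
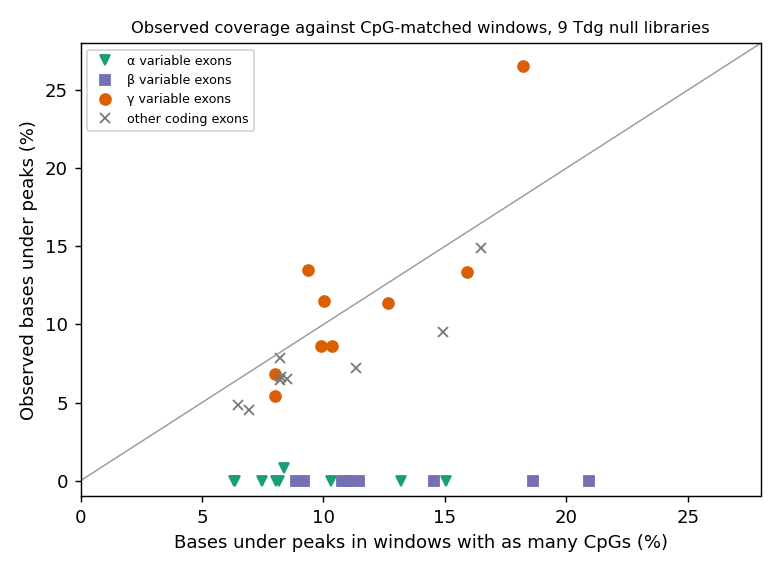
Observed percent of exon bases under peaks against the percent in 500-bp windows with as many CpGs, for each of the 9 *Tdg* null libraries and each class of exon; the line marks equality. β exons lie at 0 where matched windows reach 8.87% to 20.9%, while γ exons range from 5.42% to 26.5%, on both sides of the line.

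Because the annotation lacks many α and γ exons, the span was also searched on the forward strand for open reading frames of at least 2000 bases, from ATG to stop. There were 61, of which 40 coincided with the annotated variable exons and 18 others lay within the clusters, 4 in α, 3 in β and 11 in γ. Of these 18, 16 had no base under a peak in any *Tdg* null library. The exceptions lay in γ, at chr18:37845054-37847492 with 600 bases in *Tdg* null carcass of pair a, and at chr18:37906842-37909319 with 59 bases in *Tdg* null hindbrain Z. Together with the annotated exons, 51 of 58 had no *Tdg* null peak. An open reading frame is a description of the sequence, and none was assigned to a gene. The 3 other frames lay between the clusters, and of these chr18:37828759-37831224, before the γ gene, was touched by peaks of 2 *Tdg* null libraries, with at most 142 bases.

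Position along the exon was examined where a promoter would meet its exon. The first 500 bases of the variable exons were covered less than the rest, by -1.24 ± 0.99 (SD) on the log2 scale, below 0 in 6 of 6 litters (exact sign flip p = 0.03125). These bases come from the few covered exons. In hindbrain O and Q the first 500 bases held no peak, so their values, -2.07 and -2.78, rest on the added 100 bases. The value of pair b was -0.07. In hindbrain A and O, 1 peak on γ exon 8 gave all covered bases, and an even share of the first 500 bases is shorter than that peak. The sign and p thus follow the place of few peaks and are not read as a trait of exon starts. With an expectation from the CpG number of each side the value was -1.11, with the *Tdg* null liver of pair b -1.13, and with the first 1000 bases in place of 500 -1.78 (each exact sign flip p = 0.0625). In γ exon 8, the mean over the 9 *Tdg* null libraries was 8.75% in bin 1 of 10 equal bins from the 5′ end and 77.8% in bins 6 to 9, and in γ exon 6 it was 9.18% in bin 1 and 55.6% in bin 7. In γ exon 9, bins 1 to 4 were covered in both *Tdg* null hearts, a mean over the 9 libraries of 22.2%. Bins 7 to 10 were covered in heart of pair a alone, a mean of 11.1%, so only heart of pair b ran the other way. In the 1000 bases upstream of the 40 exons, where the promoters lie, 7 of the 9 *Tdg* null libraries and all 10 WT libraries were at 0. Carcass of pair b covered 0.787% and heart of pair a 0.0025% of these bases.

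Over the whole span, exons included, peaks were sparse. *Tdg* null hindbrain libraries had 10 peaks in A, 10 in O, 12 in Q and 10 in Z, or 11.0 to 13.2 per Mb, where the whole genome had 40.7 to 51.8 per Mb. The other *Tdg* null libraries had 26 and 7 in heart, 12 and 19 in carcass and 7 in liver, and the WT libraries 0 to 6. All 9 *Tdg* null libraries had fewer peaks per Mb in the span than in the genome. Between the annotated exons of any gene, 0.399%, 0.449%, 0.522% and 0.413% of bases were covered in *Tdg* null hindbrain A, O, Q and Z. Variable exons exceeded this by 2.26 ± 0.25 (SD) on the log2 scale, above 0 in 6 of 6 litters (exact sign flip p = 0.03125). Divided by the coverage of windows with equal GC content or as many CpGs, the difference was 0.79 or 0.67 (each exact sign flip p = 0.03125). The excess came from γ exons 6 to 9, beside the 200 bases of α exon 9 in hindbrain Z. β exons were at 0 in all 9 *Tdg* null libraries and α exons in 8 of 9, while 0.238% to 1.30% of bases were covered between exons. At these rates an even share of the α exons, or of the β exons, is shorter than 1 peak of mean length in each library. No order of α or β exons against the sequence between exons is therefore read.

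The longest stretches with no *Tdg* null peak ran for 255 kb, from chr18:37547701-37802900, with 13 β exons, for 169 kb, from chr18:37377701-37546800, with 8 β exons, and for 160 kb, from chr18:37089939-37250000, with 8 α exons. The whole β span of 256 kb held 2 *Tdg* null peaks and 2 WT peaks, all in 1 stretch (chr18:37546801-37547700) outside any annotated gene. It was covered for 400 bases in *Tdg* null hindbrain O, 900 in *Tdg* null hindbrain Z, 900 in WT hindbrain Q and 900 in WT heart of pair a. Words that occur once made up 56.9% of its bases.

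The 3′ part of the γ cluster, the 83.5 kb after γ exon 5, held 72 of the 74 peaks of the *Tdg* null libraries in the γ span, between 5 and 15 in each library, and the WT libraries held 0 to 2 there. Its 84.0-kb 5′ part held 2. A stretch in the intron between the 2 annotated constant exons of γ (chr18:37996301-37996900, 600 bases, 14 CpGs) lay under a peak in all 9 *Tdg* null libraries, and no other part of the span did. The peaks that cross it covered 600 to 1000 bases in the *Tdg* null libraries, and of the WT libraries hindbrain Q had 500 bases. A second intronic stretch (chr18:37946101-37947500) was touched by peaks of all 9 *Tdg* null libraries, though with no base common to all, with 400 to 1300 bases each, and by both WT carcass libraries, with 400 and 300. In the untranslated part of γ exon 9, the stretch chr18:37983201-37984500 was covered in 8 *Tdg* null libraries, all but the heart of pair b, for 800 to 1200 bases, and in WT hindbrain Q for 800 and WT carcass of pair b for 600. The stretch chr18:37962001-37963100, in an intron, was covered in 7 *Tdg* null libraries for 500 to 1100 bases and in no WT library. All 4 *Tdg* null hindbrain libraries carried each of these stretches.

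The constant end of the α cluster held most *Tdg* null peaks of the α span. The 41.1 kb after the last α variable exon held 26 *Tdg* null peaks and no WT peak, while the 216 kb that carry the variable exons held 2 and 8. The 41.1 kb were covered to 5.35% in *Tdg* null hindbrain A, where the genome had 3.60%, and to 1.95% in Z, where it had 3.67%. They lay above the genome in *Tdg* null hindbrain A and O and both carcasses, and below it in the others. The 3′ part of γ lay above the genome in each *Tdg* null library. Between constant exons 2 and 3, chr18:37336101-37337900 was covered for 800, 600, 700 and 800 bases in *Tdg* null hindbrain A, O, Q and Z, for 1800 and 1700 in carcass and for 600 in heart of pair a. The noncoding gene *Gm10544* has an exon here on the other strand. The last α constant exon (chr18:37344600-37347311) lay partly under the stretch chr18:37344501-37345900, covered in 6 *Tdg* null libraries, for 1100 bases in hindbrain A, 500 in O and 400 in Q, 600 and 1400 in carcass, and 200 in heart of pair a. *Tdg* null hindbrain Z, heart of pair b and liver were at 0 there. The 2 annotated γ constant exons, 2060 bases together, were at 0 in all 19 libraries. An even share of so few bases is shorter than 1 peak, and the annotation may lack other γ constant exons. No contrast with the α constant exons is therefore read.

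In WT, 11 stretches of the span lay under a peak, 6 of them also under a *Tdg* null peak. The 5 without a *Tdg* null peak included chr18:37182601-37183200 and chr18:37200401-37200900, in the α cluster downstream of α exon 8, each covered in the same 4 WT libraries, both carcasses, heart of pair a and liver of pair a. Words that occur once made up 24.7% and 25.8% of these 2 stretches, and between 16.4% and 54.5% of the other 3, while the stretches of the γ cluster covered in WT were at 100%. The part of repeated sequence in these peaks was not tested.

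Hindbrain and the other tissues were compared within the *Tdg* null embryos by the log2 ratio of variable exon coverage to genome coverage. It was -0.79, -0.69, -0.37 and -0.69 in hindbrain A, O, Q and Z, and -0.86 and -0.73 in the 2 embryos of the other tissues. Hindbrain was higher by 0.16, less than the SD of 0.18 among hindbrains, and the exact permutation p was 0.4 (n = 4 and 2, smallest possible 0.0667). Leaving out 1 hindbrain at a time gave 0.07 to 0.21, the lowest without Q. The difference was 0.44 with all member exons in place of variable exons, and it turned to -0.76 with the *Tdg* null liver of pair b, so no direction is given. These files hold no cell type markers, so the makeup of the tissues was not examined.

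Last, the variable exons were set against other gene families and against genes tied to the clusters. The 12 non-clustered protocadherins, single genes outside the clusters, had 5.38% to 12.5% of coding bases under peaks in *Tdg* null hindbrain. *Pcdh1* and *Pcdh12* also lie on chromosome 18. The clustered variable exons lay lower by 1.96 ± 0.51 (SD) on the log2 scale in 6 of 6 litters (mean -1.96; exact sign flip p = 0.03125, adjusted p = 0.03125 over 3 families). Of these 12 genes, 3 (25%) were called, *Pcdh1*, *Pcdh10* and *Pcdh17*, beside 18.9% of all protein-coding genes. *Pcdh17* had 36.0%, 41.3%, 41.3% and 60.8% in *Tdg* null hindbrain A, O, Q and Z, and 0, 0, 2.71% and 0 in WT.

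The 40 annotated *Hox* entries (*Hoxa3* is listed under 2 identifiers), developmental regulators that also lie in compact clusters, were at 0 in all 8 hindbrain and all 4 heart libraries, and covered to 6.56% and 9.04% in *Tdg* null carcass, 0.934% in *Tdg* null liver and 0.0276% in WT liver of pair a. The 127 olfactory receptors of chromosome 9, an array of single-exon coding genes, were at 0 except 0.0915% in *Tdg* null hindbrain Q and 0.0449% in *Tdg* null liver. As a class, variable exons lay above both families in 6 of 6 litters, a value that rests mainly on γ exons 6 to 9, since β exons were at 0 throughout and α exons in 8 of 9 *Tdg* null libraries (each exact sign flip p = 0.03125, adjusted p = 0.03125). Against olfactory receptors the log2 ratio, which rests on the added 100 bases where these are at 0, was 4.64, and it was 3.13 with an expectation from GC content and 2.46 with one from CpG number (each exact sign flip p = 0.03125). In carcass alone, both *Tdg* null libraries had a higher share in *Hox* genes than in variable exons. *Hox* coding exons held 7.63 and these olfactory receptors 0.587 CpGs per 100 bases, on either side of the 3.50 of the variable exons.

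Of 15 regulators of the clusters, 6 were called in hindbrain: *Smc3*, a cohesin subunit; *Smchd1*, a chromatin protein that represses these clusters; the DNA methyltransferases *Dnmt3a* and *Dnmt3b*; the histone methyltransferase *Setdb1*; and *Wiz*. *Dnmt3a* had 10.8% to 11.6% of coding bases covered in the 4 *Tdg* null hindbrains and *Wiz* 16.0% to 30.1%, against 0 in WT hindbrain. *Ctcf*, which encodes the insulator protein that binds cluster promoters, was at 0 in all hindbrain libraries. Of 7 signalling or adhesion partners, 3 were called, *Ptk2*, *Fyn* and *Nlgn2*. *Fyn*, a Src-family kinase, had 34.9% to 44.3% in *Tdg* null hindbrain and 0, 0, 11.7% and 0 in WT A, O, Q and Z. All of these have the adjusted p of 0.151 given above, and the counts stand beside the 18.9% of all genes.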

How the data were processed

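The authors trimmed the reads with trim_galore v0.4.1, aligned them to NCBIM37 (mm9) with Bowtie2 v2.2.6, handled alignments with samtools v0.1.18 and called peaks in every library on its own (MACS within SeqMonk, p value cutoff 1e-05, fragment size 200 bp). An input library or duplicate removal is not given in the sources used here. The deposited values are peak starts and ends.

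From these, bases under peaks were summed over features of the GENCODE annotation of NCBIM37 with Python 3.11.15 and numpy 2.4.6. Variable exons are coding exons of members of at least 1000 bases; reference exons are those of all other protein-coding genes. Log2 ratios add 100 bases to each covered length. Litters were averaged over tissues. Hindbrain was tested by exact permutation of 4 against 4 (4 against 2 for hindbrain against the other *Tdg* null embryos), other comparisons by exact sign flips over 6 litters, with Benjamini-Hochberg adjustment within each family or, by gene, over all genes. The tests were checked on simulated data. Genotypes of a litter are paired by the labels, and the Jaccard index of a WT hindbrain with its own litter's *Tdg* null hindbrain was 1.03 times its mean over all 4 *Tdg* null hindbrains (0.902 to 1.21). Members, lists and tests were chosen with earlier results of these data known. Genes named were those with the highest and lowest coverage of each cluster in *Tdg* null hindbrain, C-type members (*Pcdhgc5* was the symbol that matched), stretches under peaks of all 9 *Tdg* null libraries, and called genes of each list. No member had a variable-exon peak in 2 WT libraries.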

Additional observations from a re-analysis of the deposited data

Results flagged for a closer look

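Within the groups of 4 hindbrain libraries, a library was singled out where its distance to the nearest other took up nearly the whole range of the group (Dixon's test at the 95% level). Of 15 such groups with any spread, 6 gave a result. The rate of about 1 in 20 that chance gives does not apply to them, since in 3 of the 6 the other 3 libraries were tied and 4 are overlapping measures of 1 library.

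WT hindbrain Q stood above the other 3 WT hindbrains in 4 measures. Member exon bases per Mb of peaks were 66.7 against 0 in the others. Its peaks covered 0.285% of the whole span, where the next WT hindbrain had 0.0329%. They covered 0.351% of the β span and 0.238% of the sequence between exons, against 0 and 0.0396% in the next library. This library had the most peaks of the WT hindbrains, 21606 against 1563 to 8989, and the part of peak number in these values was not tested.

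*Tdg* null hindbrain Z stood below the other *Tdg* null hindbrains in member exon bases per Mb, with 34.1 against 43.6 to 44.6. *Tdg* null hindbrain Q had 12 peaks in the span, where the other *Tdg* null hindbrains had 10 each.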

How the results depend on the processing

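Of 232 values from alternative settings for 19 results, 132 kept the direction and side of the threshold of the reported value, 95 lost the threshold, 2 gained it, 2 moved and 1 reversed. Of the 95, 88 left out a litter or replicate, where the smallest possible p rises to 0.0625 with 5 litters and 0.1 with 3 hindbrains against 3, so they say nothing about stability; no such value changed sign. With a replicate block, the hindbrain difference in exon coverage stayed at 2.08 percentage points with p = 0.125 by exact sign flips over 4 pairs, the smallest possible. The block changed no other call.

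Leaving out each litter or replicate gave exon coverage differences of 1.90 to 2.26 points in hindbrain and 2.28 to 2.59 over litters. Peak share differences ran from 18.3 to 40.8 in hindbrain, the highest without litter Q, whose WT library had the only WT hindbrain value above 0, and reached 32.5 over litters, also without Q. Variable against other coding exons gave -1.52 to -1.45 on the log2 scale in *Tdg* null and -0.51 to -0.35 points in WT. Exons against the sequence between them gave 2.21 to 2.34, and exon start against body -1.48 to -0.94. The clusters gave 1.05 to 1.37 for α over β, -4.69 to -4.25 for α over γ and -5.80 to -5.61 for β over γ, values that rest on the added 100 bases where a cluster is at 0. The families gave -2.14 to -1.85 against non-clustered protocadherins, 2.12 to 2.59 against *Hox* and 4.52 to 4.77 against olfactory receptors, and the latter 2 also rest on the added 100 bases. Against other coding exons, α gave -4.03 to -3.63, β -5.17 to -4.999 and γ 0.58 to 0.65.

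With variable exons alone, the peak share differences passed the threshold (23.3 and 21.7), with every WT hindbrain at 0, and are not read. With the *Tdg* null liver of pair b, the log2 ratio to other coding exons was -1.16 and that of exon start to body -1.13, both with p = 0.0625 by exact sign flips, and hindbrain minus the other embryos reversed to -0.76 from 0.16. With all member exons in place of variable exons that last difference moved to 0.44 (exact permutation p = 0.0667). Counting exons that overlap a peak in place of bases gave -0.63 against other coding exons (exact sign flip p = 0.0625). Exon start against body gave -1.11 with an expectation from CpG number and -1.78 for the first 1000 bases, each with p = 0.0625 by exact sign flips. The γ exons against other coding exons gave 0.036 with an expectation from GC content. With peaks of at least 600 bp, 1 member was called in place of 2. Added after seeing the data, open reading frames that the annotation leaves out gave -2.01 for variable against other coding exons, and the exons without γ 6 to 9 gave -5.59, which follows from the choice of exons with peaks. Other values moved by over 1.5 times with the call kept. An expectation from CpG number gave 0.32 for γ against other coding exons and -0.75 points in WT. All annotated member exons in place of variable exons gave 3.62 for α over β, -2.84 for α over γ, -2.06 for α against other coding exons and -2.09 for exon start against body. Including the *Tdg* null liver of pair b gave 0.95 for γ against other coding exons. Counting exons that overlap a peak gave 4.38 points in hindbrain and 4.44 over litters for exon coverage, and peaks of at least 600 bp gave -0.27 points for WT exons. The causes were not tested. Depth is unknown, so a feature with no peak may hold 5fC below detection.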
